A study of Rattus norvegicus with 5 samples.

Results

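Tekt4, Tppp3, Foxj1, Dnai1 and Cfap126 are 5 genes of cilia and microtubules among the 15442 rat genes that the arrays could name. They were selected on their signal differences between metastatic lung nodules and primary tumours in these same 5 arrays, so their differences are given here as a description, with no test. Each gene was measured by 1 probe, assigned through its RefSeq accession. All 5 passed the filter on dim probes.

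The tumours were grown from C6-L cells, a rat glioma line, as xenografts in BALB/c nu/nu nude mice, which lack a thymus and accept foreign cells; the labels give an age of 6 weeks. The samples were 3 metastatic lung nodules taken 6 weeks after γ-irradiation, 1 irradiated primary tumour of the same time point, and 1 primary tumour that was not irradiated, taken 6 weeks after the cells were implanted. Each sample was hybridised to 1 Agilent rat array, all on 1 slide, and nothing in the labels tells whether separate animals gave the nodules. The study set nodules against the irradiated primary and the irradiated against the non-irradiated primary.

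Several limits of this model bear on ciliary genes. A nodule sits in mouse lung, whose airways carry motile cilia, and a rat probe does not tell which species its signal came from. Fewer cells of a type and less RNA per cell cannot be told apart in such bulk samples. The nodules lay in 1 row of the slide and the primaries in the other, so the row and the group cannot be told apart.

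A motile cilium is built on a ring of doublet microtubules around a central pair. Dynein arms slide the doublets past each other, and radial spokes and the nexin-dynein regulatory complex coordinate the beat. In the lung, multiciliated cells of the airway lining carry these cilia and move mucus. Ependymal cells of the brain and sperm use much of the same machinery. Foxj1, a forkhead transcription factor, switches on the motile cilium programme together with RFX factors. Dnai1 is an intermediate chain of the outer dynein arm. Cfap126, also called flattop, is a doublet-associated protein that helps place basal bodies in mice. Tekt4 is a tektin, a filament protein inside doublet microtubules, needed for normal sperm motility in mice. Tppp3 belongs to the tubulin polymerisation-promoting proteins, which bundle microtubules, and also occurs in cells without motile cilia, such as those of the tendon sheath.

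Levels are log2 signals relative to the 75th percentile of the same array, so a level of 0 stands at that percentile and a difference of 1 is a doubling. They compare arrays within a probe and do not rank genes against each other. "Above background" means that every used spot of the probe carried the scanner software's well-above-background flag. On each array 69.8 to 73.5% of gene spots had the flag and 0 were saturated. The number of arrays limits the precision.

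Because Foxj1 acts with RFX factors, the promoters of the 5 genes were searched for their binding letters. The window ran from 250 bases before to 50 after the gene start in RefSeq's rat assembly GRCr8, and held entries for 3 of them. The RFX core GTTGCC was looked for on both strands, then the wider GTTNCC, chosen after the letters had been seen and containing every GTTGCC match. The forkhead core TGTTTAC was searched too. Tekt4 and Dnai1 are printed because they hold a match, shown in capitals as it reads on the gene's strand. The Tekt4 window is chr10:14992034-14992333 and the Dnai1 window chr5:61525829-61526128, both on the plus strand.
Tekt4: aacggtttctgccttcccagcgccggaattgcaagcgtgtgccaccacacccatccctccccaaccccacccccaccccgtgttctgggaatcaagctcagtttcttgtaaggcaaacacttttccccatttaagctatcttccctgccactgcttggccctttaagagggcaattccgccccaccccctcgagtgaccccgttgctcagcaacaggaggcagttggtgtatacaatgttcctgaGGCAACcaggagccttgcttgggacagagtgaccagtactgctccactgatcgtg
Dnai1: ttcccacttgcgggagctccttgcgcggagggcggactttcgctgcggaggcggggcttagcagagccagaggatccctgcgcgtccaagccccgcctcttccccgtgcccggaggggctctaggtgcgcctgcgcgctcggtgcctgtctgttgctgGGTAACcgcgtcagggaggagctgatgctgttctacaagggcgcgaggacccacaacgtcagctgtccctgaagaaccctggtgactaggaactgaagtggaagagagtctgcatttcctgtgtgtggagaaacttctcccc
The Tekt4 match begins 5 bases before the gene start and has the exact core. The Dnai1 match begins 92 bases before it and fits only the wider letters. Cfap126 had neither, and none of the 3 windows held TGTTTAC. Of 27457 rat promoters, 12.2% held GTTGCC, 45.7% GTTNCC and 3.76% TGTTTAC. Of the 108 promoters of other motile cilium genes in 7 lists, 41.7% held GTTGCC, 74.1% GTTNCC and 6.48% TGTTTAC. A match of letters shows no binding, and Tekt4 and Dnai1, the genes with a match, differed from each other in which samples were high.

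Foxj1, the regulator, differed widely between the nodules. Its level was -1.14 in nodule 1, -2.03 in nodule 2 and -3.72 in nodule 3, against -3.46 in the irradiated and -2.28 in the non-irradiated primary. Nodules 1 and 2 thus stood above the irradiated primary and nodule 3 just under it. Nodule 1 was 2.58 above nodule 3, and a spread between nodules of at least 2 occurred in 2.57% of the 18899 features tested. The nodules averaged -2.30 ± 1.31 (SD, n = 3), 1.17 above the irradiated primary and 0.02 below the non-irradiated primary. Neither difference was larger than the spread between nodules. The group mean therefore hides 3 dissimilar nodules: their differences from the irradiated primary were 2.32, 1.44 and -0.26, and from the non-irradiated primary 1.13, 0.25 and -1.45.

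The Foxj1 level of the non-irradiated primary was itself uncertain. The 2 spots of the probe read -1.49 and -3.07 on that array, a gap of 1.58, while on the other 4 arrays they differed by 0.04 to 0.12. Taking each spot alone, the nodule mean was 0.81 below or 0.77 above the non-irradiated primary, so the sign of that difference depended on the spot. The irradiated primary was 1.19 below the non-irradiated one, and 1.98 or 0.40 below it by single spots.

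Dnai1, the dynein arm chain, was above background in all 3 nodules and in neither primary. It measured -5.44 in nodule 1, -4.22 in nodule 2 and -3.94 in nodule 3, against -6.54 in the irradiated and -7.27 in the non-irradiated primary. No nodule overlapped a primary, which was also so, with nodules higher, for 36.2% of tested features against the irradiated and 40.1% against the non-irradiated primary. By these readings every nodule was at least 1 above both primaries, as for 0.714% of tested features. That rests on primary readings not above background, and Dnai1 entered the tested features through the nodules alone. On the non-irradiated array its 2 spots read -6.25 and -8.30, a gap of 2.04. Because the primaries have only an upper limit, folds are lower bounds against the lowest signal above background on that array. The nodules, at -4.53 ± 0.80 (SD, n = 3), were at least 2.83-fold higher than the irradiated and at least 3.01-fold higher than the non-irradiated primary. With normexp background correction, which raises dim signals, the nodule mean was 0.60 and 0.62 above the irradiated and non-irradiated primaries on the log2 scale. Nodule 1 stood at -3.81 under that correction, against -4.00 in the irradiated primary. For single nodules the bounds over the irradiated primary were 1.51, 3.51 and 4.27, with nodule 1 the lowest and short of a doubling. The nodule with the most Foxj1 signal thus had the least Dnai1 signal, and the one with the least Foxj1 had the most Dnai1. Of all named genes, 5.41% were above background in some nodule and in neither primary.

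Cfap126 differed little between samples. It measured -2.90, -3.49 and -3.82 in nodules 1, 2 and 3, against -3.51 in the irradiated and -4.12 in the non-irradiated primary, from 1 spot on each array. All 3 nodules lay above the non-irradiated primary, and the irradiated primary lay among the nodules. The nodule mean of -3.40 ± 0.47 (SD, n = 3) was 0.10 above the irradiated primary, less than the spread between nodules. It was 0.72 above the non-irradiated primary, more than the SD of 0.47 but less than the nodules' range of 0.92. The difference was 0.27 under normexp correction. There nodule 3 no longer lay above the non-irradiated primary, with a difference of -0.02, and without nodule 1 the difference of the mean from the irradiated primary was -0.15. As with Foxj1, nodule 1 was the highest and nodule 3 the lowest of the nodules.

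Tekt4, the tektin, was high in the irradiated primary alone. Its level there was -0.34, against -3.63, -3.54 and -4.29 in nodules 1, 2 and 3 and -4.98 in the non-irradiated primary. All 5 arrays were above background, and both spots of the probe agreed within 0.45 on each array. The nodules averaged -3.82 ± 0.41 (SD, n = 3), which put the irradiated primary 11.2-fold above them and 24.9-fold above the non-irradiated primary. The nodules did not overlap the irradiated primary, as for 31.8% of tested features with nodules lower. Against the non-irradiated primary the nodules were higher by 1.35, 1.43 and 0.69. With normexp correction the nodule mean differed by -2.66 from the irradiated and by 0.43 from the non-irradiated primary, and the primaries differed by 3.10. Being at least 1 above the other 4 arrays in the irradiated primary occurred in 2.74% of tested features.

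Tppp3, the microtubule-bundling protein, was bright in the nodules and in the irradiated primary. It measured 1.67, 1.82 and 1.61 in nodules 1, 2 and 3, 0.85 in the irradiated primary and -2.49 in the non-irradiated primary. The nodules were close together, at 1.70 ± 0.11 (SD, n = 3), and lay 1.80-fold above the irradiated and 18.3-fold above the non-irradiated primary. The irradiated primary was 10.1-fold above the non-irradiated one. The non-irradiated primary stood at least 1 below the other 4 arrays, as it did in 3.51% of tested features.

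**Figure D1:**
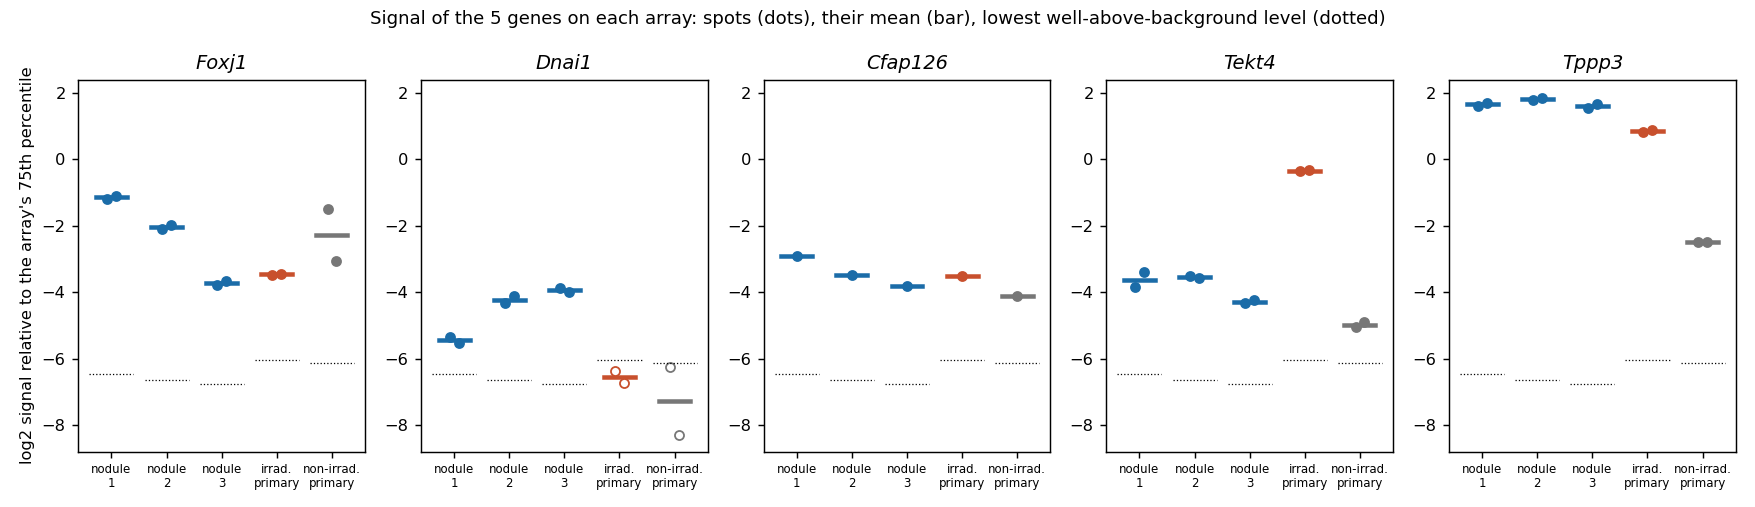
Level of each of the 5 genes (vertical axis, log2 signal relative to the 75th percentile of the array) on the arrays of nodules 1 to 3, the irradiated primary and the non-irradiated primary. Dots are spots, filled when above background, bars their mean, and dotted lines the lowest level above background on that array; Tekt4 peaks at -0.34 in the irradiated primary, and Dnai1 is open in both primaries.

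The 5 genes did not share 1 pattern. With each gene centred on its own mean over the 5 arrays, the root mean square difference between 2 of them was smallest for Foxj1 and Cfap126, at 0.80, and largest for Tekt4 and Dnai1, at 2.24. Between the primaries, Tekt4 and Tppp3 were at least 1 higher in the irradiated tumour (9.35% of features) and Foxj1 at least 1 lower (7.07%), subject to the spot disagreement described for it.

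**Figure D2:**
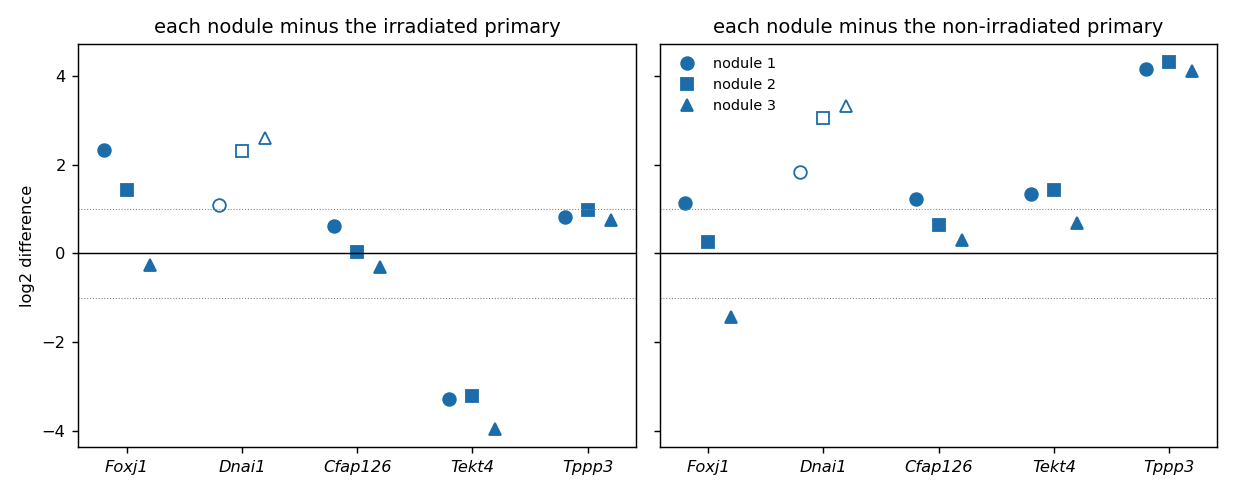
Log2 difference of each nodule from the irradiated primary (left) and from the non-irradiated primary (right) for the 5 genes. Symbols are single nodules, open where the primary was not above background, and dotted lines mark a doubling and a halving; Foxj1 runs from 2.32 to -0.26 against the irradiated primary, while the Tekt4 symbols lie between -3.21 and -3.95.

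The genes with the nearest profiles, among 11687 named genes above background on at least 1 array, were also different for each of the 5. Next to Foxj1 were Nsg1, Wfdc2, Septin4 and Scarf2, with root mean square differences of 0.13 to 0.23. Next to Dnai1 were Slc27a2, Nfatc4, Lrrn4cl and Spon2, at 0.22 to 0.32. Cfap126 had Spon1, Enpp4, Esyt1 and Abca1, at 0.059 to 0.072. Tekt4 was nearest to Mettl24, Cxcl1, Txk and Cxcl2, at 0.26 to 0.39, of which Cxcl1 and Cxcl2 encode chemokines that attract neutrophils. Cxcl1 measured 3.59 in the irradiated primary, against -0.27, 0.32 and -0.11 in nodules 1, 2 and 3 and -1.47 in the non-irradiated primary. Tppp3 had Map3k13, Zfhx4, Bmp7 and Cd83, at 0.27 to 0.33. With 5 arrays such likeness is a description only.

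The other motile cilium genes were above background in differing numbers between the samples. The 7 lists hold 137 genes besides the 5, covering regulators, dynein arms and their assembly, radial spokes and central pair, doublet proteins, and other genes of multiciliated cells. Of these, 77 had a probe and 27 were above background on no array, which is 35.1%, against 24.3% of all named genes. The number above background was 47 in nodule 1, 43 in nodule 2 and 41 in nodule 3, against 36 in the irradiated and 35 in the non-irradiated primary. The share of all gene spots with the flag was also higher in nodules 1, 2 and 3, at 73.5, 73.5 and 72.5%. It was 70.0% in the irradiated and 69.8% in the non-irradiated primary. Being seen in some nodule and in neither primary applied to 12 of the 77, or 15.6%, against 5.41% of all named genes. Being seen in nodule 1 but in neither nodule 3 nor a primary applied to 7 of the 77, or 9.09%, against 2.05% of all named genes. Among the nodules above background, nodule 1 had the highest level for 10 of the 12, nodule 2 for 1 and nodule 3 for 1. Nodule 1 was highest by that count for 56.8% of the 836 named genes with the same pattern.

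Dynlrb2, a dynein light chain, had the widest gap between nodules among these 12. It measured -1.99 in nodule 1, -3.62 in nodule 2 and -8.40 in nodule 3, against -8.14 in the irradiated and -8.21 in the non-irradiated primary, and only nodules 1 and 2 were above background. Nodule 1 was at least 27.5-fold above nodule 3 and at least 16.5-fold above the irradiated primary. A second Dynlrb2 probe read -3.88, -5.00 and -8.85 in nodules 1, 2 and 3, with the same nodules above background.

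Rsph9, a radial spoke head protein, measured -3.62, -4.86 and -7.05 in nodules 1, 2 and 3, against -7.57 in the irradiated and -8.13 in the non-irradiated primary. Nodule 1 was at least 5.34-fold above the irradiated primary. Sntn, a protein of the ciliary tip, measured -3.91, -4.66 and -5.97 in nodules 1, 2 and 3, against -6.63 and -7.64 in the irradiated and non-irradiated primaries, and was above background in every nodule. Cfap52, a protein inside the doublets, was above background in nodule 1 alone, at -4.33. Spag6l of the central pair depended on the probe: the brighter probe lay between -3.90 and -4.19 on every array, while the other was above background in nodule 1 alone, at -4.14.

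The level rule gave the same order of nodules as detection. Among the 42 motile cilium genes tested, nodule 1 was at least 1 above both primaries for 6 (Dnali1, Drc7, Sntn, Spa17, Vwa3a and Cfap77), nodule 2 for 2 and nodule 3 for 1. The shares over all tested features were 2.87%, 2.06% and 1.86%. Dnali1, Sntn and Vwa3a were above background in neither primary and entered the test through the nodules alone. Vwa3a counted in every nodule and was the only such gene in nodule 3. Its bounds over the irradiated primary were 1.59-, 1.49- and 1.48-fold in nodules 1, 2 and 3, short of the doubling that the rule asks for. Of the 5 genes, Foxj1 and Dnai1 met this rule in nodule 1, and Dnai1 alone in nodules 2 and 3, again with primaries not above background.

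**Figure D3:**
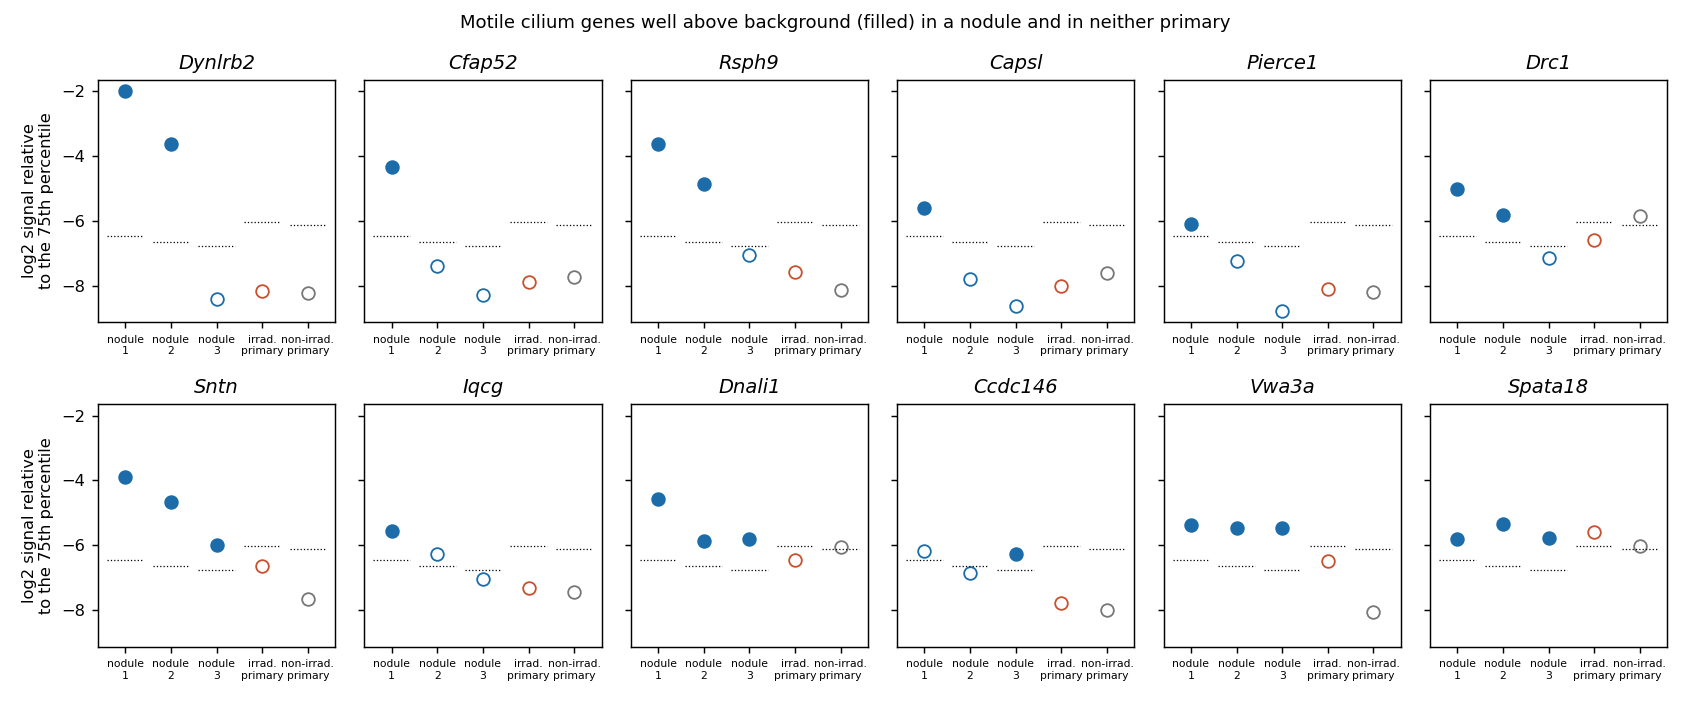
Level (vertical axes, log2 signal relative to the 75th percentile of the array) of the 12 motile cilium genes above background in a nodule and in neither primary, on the arrays of nodules 1 to 3, the irradiated primary and the non-irradiated primary. Filled points are above background and dotted lines give the lowest such level on the array; Dynlrb2 falls below background in nodule 3, at -8.40.

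Some markers of airway and alveolar cells differed between the nodules too. Scgb1a1, the secretoglobin of club cells, measured 4.11, 3.09 and -5.27 in nodules 1, 2 and 3, against -5.41 in the irradiated and -5.27 in the non-irradiated primary. Sums are on the linear scale, where 1 is the 75th percentile of the array. Such sums cover only the tested genes of a list, so genes seen in nodules 1 and 2 alone, such as Scgb3a2, are left out. Over the 8 tested club and secretory airway genes the sum was 18.5, 9.75 and 0.238 in nodules 1, 2 and 3. It was 0.250 and 0.248 in the irradiated and non-irradiated primaries. Scgb1a1 made most of it: without that gene the sum was 1.22, 1.23 and 0.212, against 0.227 and 0.222. Of the 8 club and secretory genes tested, 5 in nodule 1, 6 in nodule 2 and 2 in nodule 3 lay above both primaries, and Krt15 lay below both in every nodule. Of the 11 genes with a probe, 9, 9 and 8 were above background in the nodules and 5 in each primary. The 9 tested alveolar genes summed to 43.1, 18.2 and 10.9, against 9.60 and 12.4. Sftpa1, not tested and so not in the sum, measured 4.33, 2.11 and -8.46 in nodules 1, 2 and 3. It was above background in nodules 1 and 2 only. Without Sftpd the sum was 21.0, 13.4 and 10.9, against 9.59 and 12.4. Pdpn, bright on every array, lay between 3.36 and 3.40 in the nodules, against 3.12 and 3.35 in the irradiated and non-irradiated primaries. Of the 9 alveolar genes tested, 8 in nodule 1, 5 in nodule 2 and 1 in nodule 3 lay above both primaries. Below both lay 0, 2 and 3. Such counts of genes above or below both primaries take any margin, and the share over all features was not counted. Nodule 1 was thus the highest in Foxj1, Cfap126, Dynlrb2, Rsph9, Scgb1a1 and the sums over all tested genes of both lists. Ependymal and choroid markers, of cells that also build motile cilia, summed to 0.742, 0.570 and 0.141 in nodules 1, 2 and 3, against 0.0765 and 0.229 in the irradiated and non-irradiated primaries. Igfbp2 of that list measured -0.71, -2.17 and -4.93, against -5.50 and -5.06, and Kcnj13 was above background in nodule 1 alone, at -4.61. Igfbp2 made most of the sum in nodule 1. Ttr, the widest-ranging gene of the list, ran otherwise, at -8.54, -2.56 and -6.50 in nodules 1, 2 and 3. It measured -5.82 in the irradiated and -2.68 in the non-irradiated primary, and was above background only in the latter and in nodule 2. Of the 8 genes with a probe, 3 were above background on no array. The part of airway or ependymal cells in these levels was not tested. Dnai1 ran the other way: it was highest in nodule 3, where Scgb1a1 stood at the level of the primaries. Nodule 3 also had the highest summed heart muscle signal. The 12 tested heart genes summed to 49.4 there, against 7.46 and 6.76 in nodules 1 and 2. The sum was 11.8 and 8.72 in the irradiated and non-irradiated primaries. In nodule 3, 7 of the 12 lay above both primaries, while Myl2 and Myl3 lay below both. Myl2 measured -8.49 in nodule 3, not above background, against -2.70 in the irradiated primary. The part of heart muscle in the Dnai1 level was not tested.

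Taken as 1 group, the nodules gave no calls among motile cilium genes against the irradiated primary. By limma with Benjamini-Hochberg adjustment, 0 of the 42 genes passed in either direction, with a lowest adjusted p of 0.069, and 8 had an unadjusted p under 0.05. Over all 18899 features 0.91% were called higher and 2.81% lower, and 4152 had an unadjusted p under 0.05. The median difference of the 42 was -0.07, against 0.03 over all features. Genes above background in nodules 1 and 2 alone, such as Dynlrb2, were not among the 42. With genes above background on any array added, 0 of 50 passed, and 6 had an unadjusted p under 0.05. With that filter 4124 of all 20117 features had one. Without nodule 1 the limma count was 1 higher and 4 lower; without nodule 2 or nodule 3 it was 0 each way.

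Against the non-irradiated primary, 4 of the 42 rose and 4 fell in nodules by the same limma test. Both counts are near the shares over all features, 9.74% called higher and 8.84% lower. Tp73, which encodes a regulator of multiciliated cell formation, measured -2.68, -2.22 and -2.47 in nodules 1, 2 and 3, -1.31 in the irradiated primary and -5.96, not above background, in the non-irradiated primary. It rose at least 11.4-fold in nodules over the non-irradiated primary (limma adjusted p = 0.0091). Rfx1, an RFX factor, rose by 0.79 (limma adjusted p = 0.030), and Cfap141 and Vwa3a rose as well. Vwa3a was not above background in either primary and entered the test through the nodules alone. Dnai2, the partner chain of Dnai1 in the outer dynein arm, fell by 2.54 ± 0.38 (SE) in nodules (limma adjusted p = 0.020). Its levels were -5.04, -5.07 and -4.35 in nodules 1, 2 and 3, against -3.84 in the irradiated and -2.28 in the non-irradiated primary. Drc3 of the regulatory complex and Rsph10b of the radial spokes fell too. Cfap107, a doublet protein, was above background in the non-irradiated primary alone and entered the test through that array; it was at least 7.58-fold lower in nodules (limma adjusted p = 0.010). The median of the 42 was 0.50, against 0.04 over all features. Cfap141, Vwa3a, Drc3 and Rsph10b each lost their call under 1 to 3 other ways of processing. The limma counts changed with the nodules used: 13 rose and 5 fell without nodule 1, 0 and 0 without nodule 2, and 1 and 2 without nodule 3.

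Tekt4 stood apart from its own family. The other 4 tektins, Tekt1, Tekt2, Tekt3 and Tekt5, were above background on no array, with levels between -9.05 and -6.65. Of the 42 motile cilium genes tested, 1, the dynein light chain Dnal1, was likewise at least 1 above the other 4 arrays in the irradiated primary, beside 2.74% of all features. It measured -2.39 there, against -3.60, -3.42 and -3.46 in nodules 1, 2 and 3 and -4.32 in the non-irradiated primary.

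Among tubulins, the subunits of microtubules, some were lower in nodules than in either primary. Against the irradiated primary, 0 of 16 tested rose and 3 fell in nodules by limma, beside 0.91% higher and 2.81% lower over all features. The 3 were Tuba4a, Tuba8 and Tubb2a. Tuba4a measured -0.01, -0.25 and -0.41 in nodules 1, 2 and 3, against 3.01 in the irradiated and 0.84 in the non-irradiated primary. Tuba4a fell by 3.23 ± 0.19 (SE) against the irradiated primary (limma adjusted p = 0.0080). Tuba8, known from heart, skeletal muscle and testis in mice and humans, fell by 2.27 ± 0.17 (SE, limma adjusted p = 0.012) and stood at -0.69 in the irradiated primary. Tubb2a fell by 1.11 ± 0.12 (SE, limma adjusted p = 0.023), but was highest in the non-irradiated primary, at 4.64, and lost its call when no intensity trend was fitted (limma adjusted p = 0.061). Without nodule 2 none of the 3 passed limma, and without nodule 3 only Tuba4a did. Without nodule 1, 4 tubulins passed. The major tubulins Tuba1a, Tuba1b and Tubb4b differed from the irradiated primary by 0.13, 0.11 and -0.09 and did not pass. Tuba4a, Tuba8 and Tubb2a were also called lower against the non-irradiated primary, with differences of -1.06, -1.08 and -1.77. Tubd1 was called higher there, by 2.01. Over all features that comparison called 9.74% higher and 8.84% lower. Tuba4a lost that call when no intensity trend was fitted.

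Skeletal muscle markers were highest in the same sample as Tekt4, Tuba4a and Tuba8. Summed on the linear scale they came to 6.11, 6.96 and 7.09 in nodules 1, 2 and 3, against 172 in the irradiated and 39.5 in the non-irradiated primary. Of 18 with a probe, 10, 12 and 14 were above background in the nodules and 17 in each primary, and Myh2, Myh4 and Mybpc1 were above background in no nodule. By limma 13 of 17 tested fell in nodules against the irradiated primary, with a median of -6.41, beside 2.81% of all features called lower. The count was 15 without nodule 1, 0 without nodule 2 and 13 without nodule 3. Ckm and Tnnc2 each lost their call under 6 other ways of processing. Myh2, Myh4 and Mybpc1 entered the test only through the primaries, each a lone array. The part of muscle in the Tekt4 level was not tested. The order differed in 1 respect: the non-irradiated primary had more muscle signal than any nodule, but less Tekt4 than any nodule. Germ cell markers, of the tissue where tektins are best known, were mostly not above background. Of 12 with a probe, 9 were above background on no array. Only 2, Prm1 and Prm2, were tested, and their summed level lay between 0.065 and 0.075 on every array. The part of germ cells in the Tekt4 level was not tested.

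The relatives of Tppp3 did not share its pattern. Tppp measured -5.11, -5.32 and -5.69 in nodules 1, 2 and 3, against -5.11 in the irradiated and -5.09 in the non-irradiated primary. Tppp2 was above background in no nodule and measured -4.42 in the irradiated and -4.79 in the non-irradiated primary. It was at least 3.56-fold lower in nodules than in the non-irradiated primary. Its limma call there was lost under quantile or median scaling. Tppp2 entered the test only through the primaries, each a lone array. Markers of tendon and tendon sheath, where Tppp3 is also expressed, summed to 24.0, 28.3 and 32.0 in nodules 1, 2 and 3, against 15.5 and 12.7 in the irradiated and non-irradiated primaries. Fmod, a matrix proteoglycan, made most of the sum in every nodule. It measured 4.17, 4.58 and 4.77 in nodules 1, 2 and 3, against 3.23 in the irradiated and 1.48 in the non-irradiated primary. Of the 7 tendon genes tested, 3, 2 and 2 lay above both primaries in nodules 1, 2 and 3. Below both lay 3, 3 and 4. These counts take any margin too, again without the share over all features. Against the non-irradiated primary Fmod rose by 3.02 (limma adjusted p = 0.011), while Thbs4 and Cilp fell. Cilp was above background in the non-irradiated primary alone and entered the test through that array. It lost its call with no filter on dim probes. 6 of the 9 with a probe were above background in each nodule and in the irradiated primary, and 7 in the non-irradiated primary. Their part in the Tppp3 level was not tested.

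Genes of transport along cilia and of microtubule binding gave limma calls against the non-irradiated primary, the comparison that also called more of all features. Of 29 genes of intraflagellar transport and the BBSome, which carry cargo along all cilia, 0 passed limma against the irradiated primary. In that comparison 2 of the 29 had an unadjusted p under 0.05, beside 4152 of all 18899 features. Against the non-irradiated primary, Bbs1, Ift80, Ttc21b and Wdr19 rose and Dync2i1 fell, with Bbs1 up by 1.65 (limma adjusted p = 0.015). Wdr19 lost its call under normexp correction, and Ift80 and Dync2i1 each under 2 other ways of processing. Of 32 microtubule-binding and tubulin-modifying genes, 0 passed limma against the irradiated primary (5 at an unadjusted p under 0.05), and 6 rose and 5 fell against the non-irradiated primary. Clip1, Dclk1, Ttll12, Spast, Map1b, Map4 and Tppp2 each lost their call under 1 to 4 other ways of processing. The dimmer Spast probe ran the other way, at -2.57, -2.48 and -2.22 in nodules 1, 2 and 3, against -1.95 in the non-irradiated primary. Map2, a neuronal microtubule-associated protein, rose by 0.99, and Mapt, which encodes tau, fell by 2.79 (limma adjusted p = 0.027 and 0.026). Over all 10 lists, 0 of 119 rose and 3 fell in nodules against the irradiated primary, beside 0.91% and 2.81% of all features. Against the non-irradiated primary 15 rose and 13 fell, beside 9.74% and 8.84%. Without nodule 1 the limma counts were 3 and 10 against the irradiated, and 31 and 18 against the non-irradiated primary. Without nodule 2 they were all 0. Without nodule 3 they were 0 and 1, and 2 and 4.

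**Figure D4:**
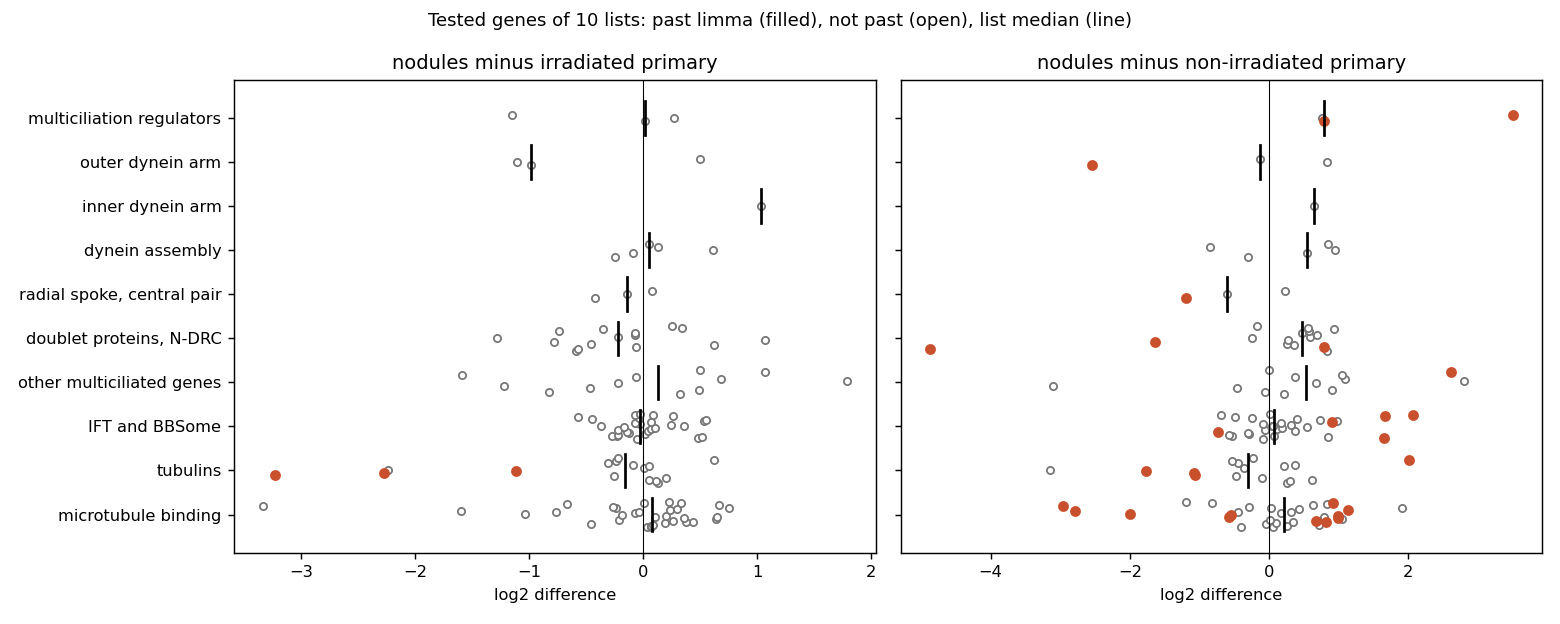
Log2 difference of the nodule mean from the irradiated primary (left) and from the non-irradiated primary (right) for the 119 tested genes of 10 ciliary and microtubule lists. Points are genes, filled where limma's adjusted p was under 0.05, and lines are list medians; only 3 tubulins are filled on the left, and 28 genes on the right.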

How the data were processed

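Total RNA of 5 tumour samples was labelled with Cy3 and measured on 1-colour Agilent rat arrays. The deposited intensity values are background-subtracted spot signals made with Agilent Feature Extraction 11.0.1.1, per the file headers, and were not scaled between arrays. Flags that mark a spot as an outlier, as saturated or as well above background are deposited too, as other values, 0 or 1, per the file headers. A deposited table holds log2 values that the authors normalized in a way not given in the sources used here; it served as an alternative, and the medians of its columns were all 9.74.

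Outlier spots were left out, log2 signals of a probe's spots were averaged, and each array was scaled to its 75th percentile over non-control probes. Accessions named 18354 of 30363 usable probes (60.4%) through RefSeq's rat gene table (GRCr8). The brightest probe stood for a gene. A feature entered the test if all arrays of some group showed it above background, which left 18899. limma 3.58.1 in R 4.3.3 fitted 3 group means with an intensity trend, and p-values were adjusted by Benjamini-Hochberg, with a threshold of 0.05. The spread came from the 3 nodules alone and was assumed for the lone primaries, and may be technical. Between the primaries, each a lone array, a log2 difference of at least 1 served as a rule of size. The fit was tested on simulated data.

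The rule for naming covered the 5 genes, the 4 nearest profiles of each and the widest-ranging gene of 9 tissue lists. It also covered genes of the 10 lists that passed limma or stood furthest above in a nodule or in the irradiated primary. Not every gene that it covers is named. Genes named outside that rule (Dynlrb2, Rsph9, Cfap52 and others not tested, family members of the 5, and markers such as Myh2 and Igfbp2) were chosen after their values were seen. The members and lists were chosen with earlier results of these data known. Widening the RFX letters, the filter on any 1 array and the use of single Foxj1 spots were added after seeing the data. The files hold no mean spot signal, so the planned normexp correction used median signals. A result that the rule covers is not reported here.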

Additional observations from a re-analysis of the deposited data

How the results depend on the processing

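The 5 genes' differences moved by less than the spread between nodules under median or quantile scaling, other filters, kept outlier spots and the deposited log2 table, apart from the cases given here. Dnai1, not above background in the primaries, has no value with the deposited table or with the filter for all 5 arrays. Normexp correction shrank some differences: Dnai1 to 0.60 above the irradiated and 0.62 above the non-irradiated primary, Tekt4 to -2.66 and 0.43, and Tppp3 to 3.84 and Cfap126 to 0.27 above the non-irradiated primary. Between the primaries it gave 3.10 for Tekt4 and 2.98 for Tppp3. Of the differences of single nodules, 17 moved as well, all under normexp except that of Tppp3 in nodule 3 from the irradiated primary, which was 0.95 under median scaling. Leaving out 1 nodule gave Foxj1 differences of 0.59 to 1.88 from the irradiated and -0.60 to 0.69 from the non-irradiated primary, and Cfap126 differences of -0.15 to 0.31 from the irradiated primary.

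Over all features, limma called 172 higher and 532 lower against the irradiated primary. Leaving out 1 nodule gave 0 to 1340 and 0 to 1848; the 0.10 threshold gave 523 and 1114, no filter 114 higher, no trend 75 and 324, and median scaling 322 lower. Called against the non-irradiated primary were 1840 and 1671, with 0 to 3322 and 0 to 3083 on leaving out 1 nodule, and 2951 and 2841 at 0.10. For the 10 lists, leaving out 1 nodule gave 0 to 3 higher and 0 to 10 lower against the irradiated primary, and 0 to 31 and 0 to 18 against the non-irradiated primary. At 0.10 they had 6 lower against the irradiated, and 33 higher and 20 lower against the non-irradiated primary; no trend gave 8 lower there. Every count was 0 without nodule 2. The cause was not tested.

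No paired analysis was possible because the primaries carry no replicate numbers that the nodules share. With 2 residual degrees of freedom and 1 array per primary, signal near background, as for Dnai1, limits what can be called.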
